A study of Mus musculus with 12 samples.

Results

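The kinesin genes are the 44 genes of the deposited list of cleavage and polyadenylation sites (PASs) whose symbol begins with *Kif* followed by a digit or c, or with *Klc* followed by a digit. They were picked by a rule on the symbol, out of 16627 genes in the list, and they hold 165 of its 56204 entries. The choice was made with earlier results of these data known. An entry is a PAS listed under a gene. Kinesins are motor proteins that walk along microtubules and carry cargo, move chromosomes or take microtubules apart. In neurons they bring vesicles, mitochondria, receptors and mRNA from the cell body into axons and dendrites. Most of them move towards the microtubule plus end, and heavy chains of the conventional motor pair with light chains that help to bind the cargo. Transcripts of a gene with several PASs differ in the length of the 3′UTR when the PASs lie in the 3′-most exon. They differ in coding sequence as well when a PAS lies in an intron.

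The list comes from 3′READS+ libraries, which sequence the 3′ ends of polyadenylated transcripts, of hippocampal slices of C57BL/6 mice labelled as 3 month old, with the dentate gyrus trimmed away. The study asked whether PAS usage changes after long-term potentiation (LTP). For cLTP, a chemical form of it, slices were perfused with 50 uM forskolin, which activates adenylyl cyclase, for 5 min and then for another 5 min with the same dose of forskolin, 30 mM KCl and 10 mM calcium. Control slices from the same animals received the vehicle, 0.2% DMSO, during 10 min. Freezing followed 1 hr or 3 hr later, which makes 4 groups (Ctrl 1 hr, LTP 1 hr, Ctrl 3 hr and LTP 3 hr) of 3 libraries each. The list of sites is common to the 12 libraries. In its own APA analysis the paper set aside replicate 3 of Ctrl 3 hr, an outlier by clustering. Whether any listed site rests on that library alone was not examined. The read numbers of the libraries were not used here, because the names of their columns match no label of a sample, so neither depth nor any change after LTP is given. Every count below is a count of listed sites, whatever the number of reads behind each site, and none of the differences from other genes was tested.

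Among the 44 genes, 17 had 1 PAS and 27 had 2 or more. As a share, 61.4% of the kinesin genes had 2 or more PASs, beside 67.1% of the other 16583 genes. The median was 2 PASs per gene in both sets, and the mean was 3.75 in the kinesin genes and 3.38 in the others. At least 10 PASs were listed for 4 kinesin genes (9.09%), beside 5.41% of the others, and at least 17 for 2 (4.55%), beside 0.657%. The limit of 17 is the number of PASs of *Kif5b*, a kinesin gene itself, so that contrast was set by these same values and rests on 2 genes. The 4 genes with the most, *Kif6* with 18, *Kif5b* with 17, and *Kif2a* and *Kif19a* with 11 each, held 57 of the 165 entries (34.5%). *Kif7* followed with 9. In the whole list, 77 genes had as many PASs as *Kif6* or more, and 111 as many as *Kif5b* or more. The range within the family therefore ran from 1 to 18 PASs, and the plot of PASs per gene shows the steep fall from the richest genes to the rest.

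**Figure D1:**
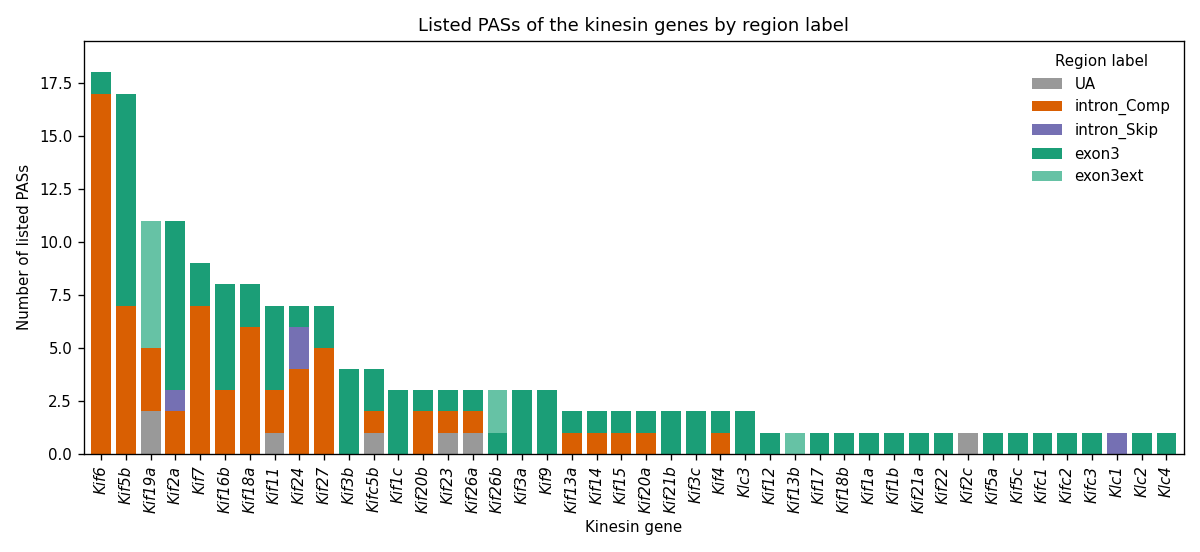
The bars give the number of listed PASs (y axis) of each of the 44 kinesin genes (x axis), ordered by that number and coloured by region label. *Kif6* has 18 PASs, 17 of them labelled intron_Comp, while the 17 genes at the right end have 1 each.

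Each entry carries a label for the region of its gene. The label exon3 is read here as the 3′-most exon, intron_Comp and intron_Skip as intronic sites, exon3ext as sequence beyond the annotated 3′ end and UA as upstream antisense, going by what the names say and by where the sites lie along each gene. In the kinesin genes, 79 entries were labelled exon3, 66 intron_Comp, 4 intron_Skip, 9 exon3ext and 7 UA. All 66 intronic PASs in kinesin genes with an exon3 PAS lay upstream of the first exon3 PAS. All 7 UA entries were on the strand opposite to the gene, and the other 158 entries were on its strand. No PAS of a kinesin gene was listed under another gene, and this was rare in the other genes too (656 of 56039 entries).

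Intronic PASs made up 47.0% of the 149 kinesin entries labelled as intronic or exon3 (95% Wilson interval for counting error, 39.1% to 55.0%), beside 32.6% (32.2% to 33.1%) in the other genes. *Kif6* alone carried 17 of the 70 intronic entries, and without it the share was 40.5%. The 4 genes with the most intronic PASs held 37 of the 70 (52.9%). They were *Kif6*, *Kif5b*, *Kif7* and either *Kif18a* or *Kif24*, which tie. The share without all 4 was not computed, so the higher share rests in large part on a few genes. An intronic PAS was listed for 20 kinesin genes (45.5%), beside 33.5% of the other genes. At the other end, 2 or more exon3 PASs were listed for 15 of the 40 kinesin genes with an exon3 PAS (37.5%), beside 49.6% in the other genes. The bars of kinesin and other genes thus stood apart most in the intron_Comp label, 40.0% of the kinesin entries and 23.8% of the others, and PASs of the same gene are not independent of each other. The paper counted fewer PASs, with limits on read number and relative abundance, and placed a much smaller share of them in introns. The shares here cover every listed site, so they are not like values.

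**Figure D2:**
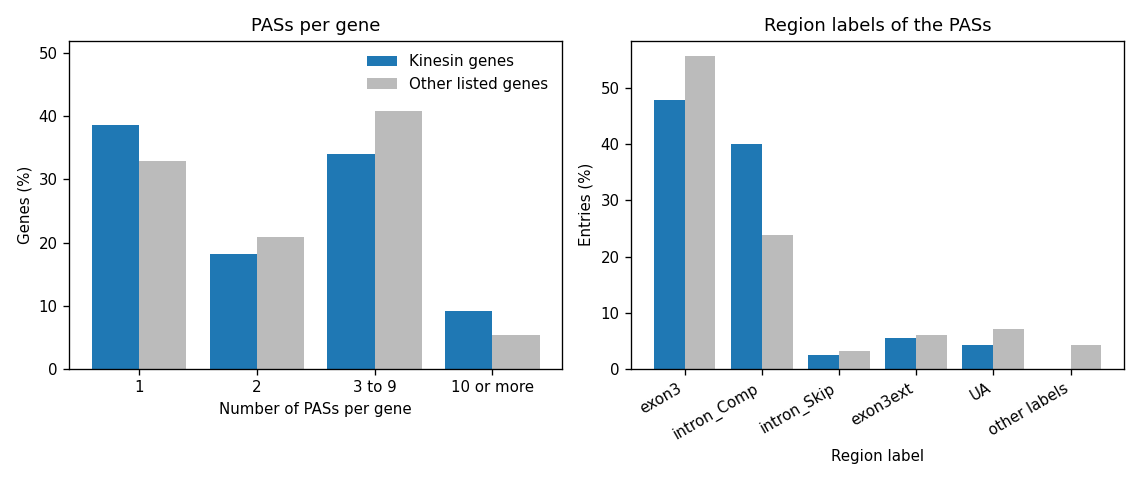
Bars give the percent of genes by number of PASs (left) and the percent of entries by region label (right), for the 44 kinesin genes in blue and the other 16583 genes in grey. Kinesin genes are higher for 1 PAS (38.6% and 32.9%) and for intron_Comp (40.0% and 23.8%), and lower for exon3 (47.9% and 55.7%).

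The conventional kinesin has 3 heavy chain genes, *Kif5a* and *Kif5c*, which are mainly neuronal, and *Kif5b*, which is expressed widely. The 3 genes had 1, 1 and 17 listed PASs. *Kif5a*, on the minus strand of chromosome 10, had a single PAS, labelled exon3, at 126662751 in mm9, the build that the submitters' processing notes name. *Kif5c*, on the plus strand of chromosome 2, also had a single exon3 PAS, at 49630298. *Kif5b*, on the minus strand of chromosome 18, had 7 intronic and 10 exon3 PASs. Its exon3 PASs ran from 6203544 to 6201000, a span of 2544 nt, with gaps of 58 to 474 nt and a median of 329 nt. They were spread along the 3′UTR without a long empty stretch. Of the 7 intronic PASs of *Kif5b*, 6 lay between 2517 and 8648 nt upstream of the first exon3 PAS, and the other, at 6238921, lay 35377 nt upstream. Only 61 genes of the list had 10 or more exon3 PASs, *Kif5b* included.

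The light chains bind cargo to these heavy chains. *Klc2* and *Klc4* had 1 exon3 PAS each, at 5107746 on chromosome 19 and at 46767576 on chromosome 17. *Klc3* had 2 exon3 PASs, 82 nt apart, at 19979871 and 19979789 on chromosome 7. For *Klc1*, the single entry was labelled intron_Skip, at 113033108 on the plus strand of chromosome 12, so no exon3 PAS was listed with which to compare it. The light chains together held 5 entries, against 19 for the heavy chains, 17 of which are in *Kif5b*.

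Apart from the *Kif3* genes, the other neuronal cargo motors named for this list had 1 or 2 PASs each. *Kif16b*, also known as a cargo motor but outside that list, had 8. *Kif1a*, which carries precursors of synaptic vesicles, *Kif1b*, which carries vesicle precursors and mitochondria, *Kif17*, known for the dendritic transport of NMDA receptors, and *Kif21a* each had 1 PAS, labelled exon3. *Kif21b* had 2 exon3 PASs 28 nt apart, the shortest span among the kinesin genes. *Kif13a* had 1 exon3 PAS and 1 intronic PAS, 38740 nt upstream of it. The single PAS of *Kif13b* was labelled exon3ext, at 65428455 on the plus strand of chromosome 14. Over the 13 cargo motors named for this list, the 3 conventional heavy chains included, 7 had a single PAS and 2, *Kif5b* and *Kif13a*, had an intronic PAS.

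The heterotrimeric motor of cilia and axons pairs the product of *Kif3a* with that of *Kif3b* or *Kif3c*, and these genes were listed with exon3 PASs alone, widely spaced. *Kif3a*, on the plus strand of chromosome 11, had 3, at 53414605, 53416529 and 53417738, which span 3133 nt, the largest span among the kinesin genes. *Kif3b*, on the plus strand of chromosome 2, had 4 over 2974 nt. They form a near group, at 153156152 and 153156644, and a far group, at 153159087 and 153159126, with 2443 nt between the groups. *Kif3c* had 2, 1032 nt apart. In the whole list, 694 genes had a span as large as that of *Kif3a* or larger, so the value is high but not extreme.

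Exon3 spans could be taken in the 15 kinesin genes with 2 or more exon3 PASs. The median span was 861 nt, with 235 nt at the 25th and 1921 nt at the 75th percentile, and the other genes had a median of 816 nt, with 258 and 1770 nt. The spans fell below 300 nt in 6 genes and above 2000 nt in 4, *Kif3a*, *Kif3b*, *Kif5b* and *Kif1c*. *Kif1c*, a vesicle motor, had 2 PASs 62 nt apart and another 2467 nt further downstream, the widest gap in the family. Of the 39 gaps between neighbouring exon3 PASs, 10 were of 100 nt or less and 6 were over 1000 nt. The median gap was 193 nt, beside 259 nt in the other genes, and *Kif5b* and *Kif2a* together gave 16 of the 39.

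**Figure D3:**
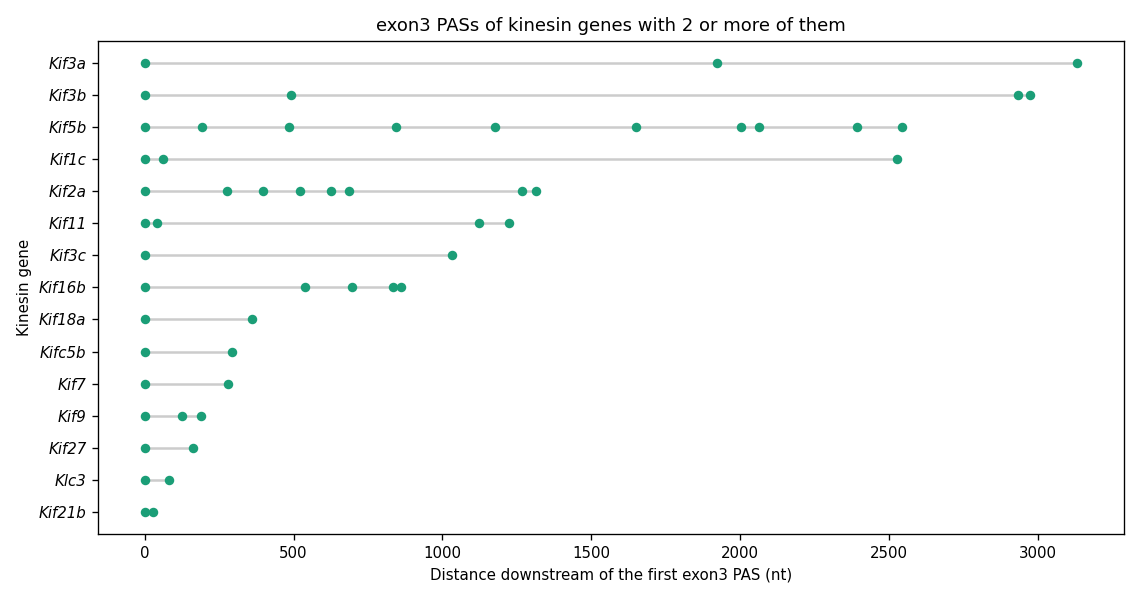
Each row is 1 of the 15 kinesin genes with 2 or more exon3 PASs, and points mark these PASs by their distance downstream of the first (x axis, nt). *Kif5b* has 10 PASs spread over 2544 nt, whereas *Kif3b* and *Kif1c* each show a near and a far group with an empty stretch of 2443 and 2467 nt.

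The mitotic kinesins, which build the spindle, move chromosomes or act in cytokinesis, had intronic PASs in 7 of the 9 genes of their list. They were *Kif4*, *Kif11*, *Kif15*, *Kif18a*, *Kif20a*, *Kif20b* and *Kif23*, against 2 of the 13 cargo motors and 33.5% of the genes that are no kinesin gene. Of the 13 kinesin genes placed in no role list, 9 (69.2%) also had an intronic PAS, so this was not particular to the mitotic list. The other mitotic genes, *Kif22* and *Kifc1*, had a single exon3 PAS each. *Kif14*, *Kif18b* and *Kif2c*, also known for a part in mitosis, were added after their values were seen, and 8 of the 12 genes then had an intronic PAS. *Kif1c* and *Kif16b*, also known as cargo motors, were added to the other list in the same way, and 3 of the 15 genes then had one. The lists are small and the difference between them was not tested.

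*Kif18a*, a motor that aligns chromosomes at the metaphase plate, had the most intronic PASs of the mitotic list, 6, between 2227 and 52242 nt upstream of its first exon3 PAS. In *Kif11*, the motor that separates the spindle poles, an intronic PAS lay at 37494562 on chromosome 19, only 562 nt upstream of the first exon3 PAS, and another 31130 nt upstream. This was the shortest distance in the family. Its 4 exon3 PASs fell into pairs 41 and 101 nt apart with 1083 nt between the pairs. *Kif20b* had intronic PASs 33139 and 15938 nt upstream, and *Kif20a* and *Kif23*, which act at the spindle midzone, had 1 each, 2853 and 7572 nt upstream. In *Kif4*, a chromosome-bound motor, and *Kif15*, a spindle motor, the intronic PAS lay 53191 and 46923 nt upstream of the single exon3 PAS. In *Kif14*, which acts in cytokinesis, the distance was 4772 nt.

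The intronic PASs of the whole family lay a median of 32135 nt upstream of the first exon3 PAS (66 PASs in 18 genes), beside 19916 nt in the other genes. Without *Kif6* the median was 22793 nt (49 PASs). More than 50000 nt lay between them for 26 of the 66 (39.4%), beside 27.9% in the other genes. *Kif6*, on the plus strand of chromosome 17, contributed 15 of these 26. Without it, the share over 50000 nt was 11 of 49 (22.4%), below that of the other genes. The 17 intron_Comp PASs of *Kif6* ran from 49814385, 234785 nt upstream of its only exon3 PAS at 50049170, to 50020268, 28902 nt upstream. A run of 12 of them lay within the first 88300 nt of that stretch, and the next was 50090 nt further downstream. In the whole list, 21 genes had 17 or more intronic PASs.

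Other genes with intronic PASs far upstream were *Kif16b*, a motor of early endosomes, with sites 138505, 79726 and 13108 nt upstream, and *Kif24*, a centrosomal member of the microtubule-depolymerising family, with 6 sites from 22793 to 72253 nt upstream. Among the 6 were 2 intron_Skip sites, which together with 1 in *Kif2a* and 1 in *Klc1* make up the 4 sites of that label in the kinesin genes. *Kif27* had 5 intronic PASs from 32218 to 64850 nt upstream. *Kif7*, a regulator of Hedgehog signalling at the tip of the primary cilium and related to *Kif27*, had 7 that lay close together, between 11422 and 14959 nt upstream. *Kif26a* had 1 intronic PAS, 10233 nt upstream. The positions thus differed between genes, in clusters in *Kif7* and scattered in *Kif6*, as the plot of intronic distances shows.

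**Figure D4:**
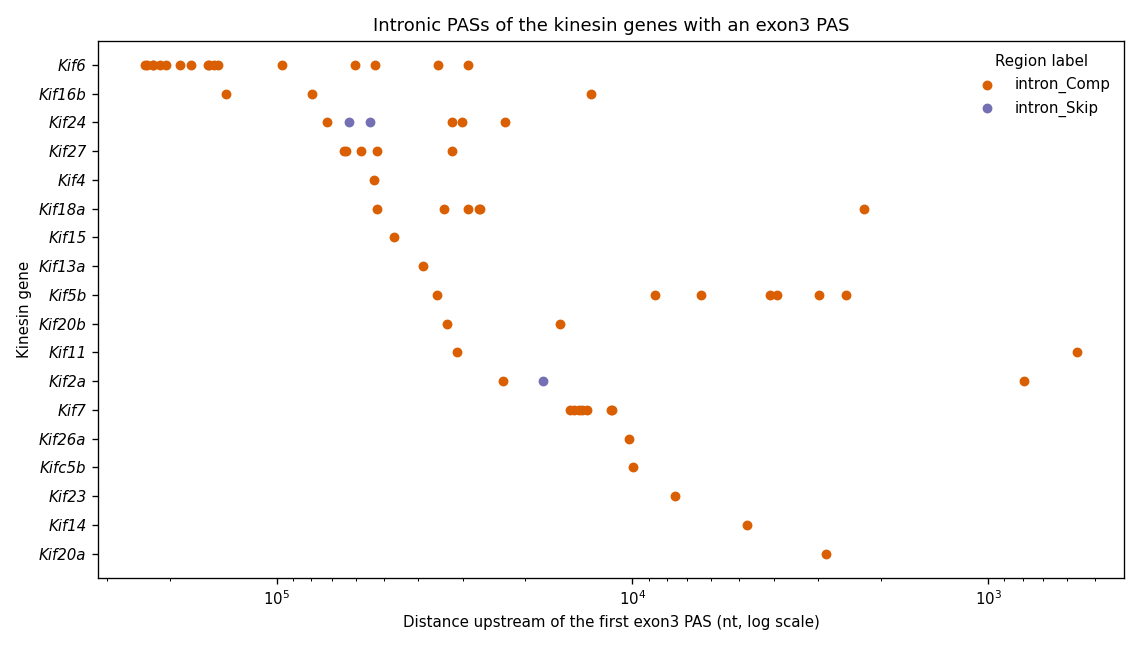
Each row is 1 of the 18 kinesin genes with intronic and exon3 PASs, and points mark the intronic PASs by their distance upstream of the first exon3 PAS (x axis, nt, log scale, upstream to the left). *Kif6* reaches 234785 nt, *Kif11* comes within 562 nt, and the 7 points of *Kif7* lie between 14959 and 11422 nt.

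*Kif2a*, whose product takes microtubules apart in growing axons, had 8 exon3 PASs, on the minus strand of chromosome 13 from 107751931 to 107750618, over 1313 nt. The gaps were short, with a median of 120 nt and a range of 47 to 579 nt. Its intronic PASs lay 23149, 17866 and 794 nt upstream. A PAS of *Dimt1* on the opposite strand, labelled exon3ext, lay 1 nt from the first exon3 PAS of *Kif2a*, and the last exon3 PAS of *Kif2a* was 317 nt from the nearest exon3 PAS of *Dimt1*. Of the kinesin entries, 24 in 8 genes had an opposite-strand PAS of another gene within 5000 nt, 9 of them in *Kif2a* and 6 in *Kif19a*. The closest of the others were 16 nt, between the exon3 PASs of *Kif20a* and *Cdc23*, and 41 nt, between those of *Kif7* and 5730590G19Rik. A PAS of another gene on the same strand lay within 5000 nt of 5 entries, in *Kif15*, *Kif19a* and *Kif23*, and of none of the 70 intronic ones. Such neighbours were not counted for the other genes, so no background stands beside these numbers.

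An exon3ext site was listed for 3 of the 44 kinesin genes, beside 2032 of the other 16583 genes. The label was given to 9 kinesin entries (5.45%, beside 6.06% of the other entries), in *Kif13b*, *Kif19a* and *Kif26b*. *Kif19a*, a motor that limits the length of cilia, had 6 of them and no exon3 PAS, on the plus strand of chromosome 11 from 114652053 to 114655687. The nearest PAS on the opposite strand, an exon3 PAS of *Btbd17*, was 373 to 3152 nt from them. *Kif26b*, a non-motile kinesin, had its exon3ext PASs 4176 and 6348 nt downstream of its single exon3 PAS. With *Klc1* and *Kif2c*, *Kif13b* and *Kif19a* make up the 4 kinesin genes (9.09%) without an exon3 PAS, beside 9.33% of the other genes.

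UA sites were listed for 6 of the 44 kinesin genes, beside 2296 of the other 16583 genes. They made up 4.24% of the kinesin entries and 7.12% of the others. The 6 genes were *Kif2c*, *Kif11*, *Kif19a*, *Kif23*, *Kif26a* and *Kifc5b*. Of these, *Kif19a* had 2 UA sites, 144 nt apart, and the rest 1 each. *Kif2c*, the mitotic member of the microtubule-depolymerising family, was listed with its UA site alone, at 116855766 on chromosome 4, so its entry marks no PAS on the strand of the gene. In *Kif11*, *Kif23*, *Kif26a* and *Kifc5b*, the UA site lay 46913, 29771, 38809 and 17831 nt upstream of the first exon3 PAS. It was farther than any intronic PAS of the same gene, an order that the label itself implies.

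The minus-end-directed motors have their motor domain at the opposite end of the protein. *Kifc1*, *Kifc2* and *Kifc3* had 1 exon3 PAS each. *Kifc5b*, a close relative of *Kifc1*, had 2 exon3 PASs 294 nt apart, 1 intronic PAS and 1 UA site. How reads of such similar genes were assigned was not examined. Of the remaining members, *Kif9*, a motor of motile cilia, had 3 exon3 PASs within 189 nt, and *Kif12* and *Kif18b* had 1 each.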

How the data were processed

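The authors mapped 3′READS+ reads with Bowtie2, took reads carrying unaligned Ts at the 5′ end as evidence of a PAS and joined PASs that lay close together. The submitters' processing notes name mm9. The deposited table holds, for every site, a symbol, chromosome, strand, position in nt (a coordinate rather than a count, ratio or signal) and region label, then 12 per-library columns of counts whose names match no sample label. Columns were assigned by name alone, so these 12 were left out and no test was run.

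Members were found by symbol, and all 44 matched an Ensembl gene name. The members and lists were chosen with earlier results of these data known. Named genes were fixed by role, and by the most PASs, the largest spans, the farthest intronic sites and the labels UA and exon3ext; the other members are named so that each is accounted for. Counts, spans and distances were computed with Python 3.11.15 and pandas 2.3.3, Wilson intervals with scipy 1.17.1 and plots with matplotlib 3.10.9. The steps were tested on simulated lists. The annotation at hand is of GRCm38, so no gene structure or sequence was read from it.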

Additional observations from a re-analysis of the deposited data

How the results depend on the processing

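The 11 results were recomputed under 30 alternatives, of which 10 were chosen after seeing the data. Of these values, 29 stayed within 1.5 times the reported count, or within the 95% interval of the reported share or median. Several could not have moved, because the alternative added or removed no kinesin entry. These were the settings on distinct positions, on sites of more than 1 gene, on intronic PASs near another gene and on exonI and exon5 sites. The same holds for intron_Comp alone in the mitotic and cargo lists. Other settings touched too few entries or genes to take a count past 1.5 times. For entries and genes with 2 or more PASs, this was leaving out the 7 UA entries. For gene counts, it was leaving out or adding exon3ext sites (3 genes), and intron_Comp alone for genes with an intronic PAS. Adding *Kif14*, *Kif18b* and *Kif2c* to the mitotic list was another. These settings therefore say little on how stable the counts are. The exception was the share of intronic PASs over 50000 nt upstream, which was 39.4%, and 22.4% without *Kif6*, the gene with the most intronic PASs. The median distance was 32135 nt, and 22793 nt without that gene, which is the lower end of the 95% interval of the median. That interval takes PASs of the same gene as independent, which they are not. The intronic share of 47.0% ranged from 40.5% without *Kif6* to 47.9% without the light chain genes. It was 42.4% over all region labels, 44.3% with exon3ext sites added and 45.5% with intron_Comp alone. The share of the other genes (32.6%) was not recomputed under these label settings, so it is not a like value for them. Of the kinesin genes, 15 had at least 2 exon3 PASs, 17 had them once exon3ext sites were counted too, and 14 after merging PASs within 50 nt. The median span was 861 nt, 1032 nt with exon3ext sites and 946 nt after merging. No paired analysis was possible because no result comes from a test between libraries. Leaving out libraries and other limits on reads were not run, for the same reason. Sites were counted without regard to their reads, which were not used here.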
